A study of Mus musculus with 6 samples.

Results

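Genes of the ATP-binding cassette (ABC) family were compared between cells with knockdown of RNF11, a ubiquitin ligase, and control cells. Members were the protein-coding rows of the deposited count table whose symbol is ABC, a letter from A to G and a number. This rule used names alone and found 40 of the 20499 listed genes, with 12 in subfamily A, 8 in B, 9 in C, 4 in D, 1 in E, 3 in F and 3 in G. Of the 40 members, 26 had enough reads to be tested and 14 did not. The filter asked for roughly 10 reads or more in at least 3 libraries.

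Total RNA was sequenced from 3 shRNF11 libraries, made after lentiviral knockdown of RNF11, and from 3 shControl libraries, whose genotype is given as WT. Per the labels, both arms were AML12 cells, an immortalized mouse hepatocyte line, and both had spent 6 h at 1% oxygen without glucose and serum before return to normal air in complete medium. That medium contained 10% fetal bovine serum, insulin, transferrin and selenium, and 40 ng/mL of the glucocorticoid dexamethasone. Cells kept in normal air throughout were not analysed here, and no label tells if the knockdown cells were a pool or a clone, or if replicates were separate cultures. Spread among libraries, possibly of technical origin, is thus all that the p-values measure. Libraries held 38118433 to 39045440 reads in shRNF11 and 37485850 to 37988546 in shControl. RNF11 had 573, 565 and 599 reads in the shRNF11 libraries, against 2050, 1926 and 1930 in shControl, a 3.32-fold lower level (edgeR adjusted p = 3.48e-28). On the second principal component shRNF11 replicate 1 (26.4) stood apart from replicates 2 (-13.6) and 3 (-11.5).

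The table goes against the labelled cells. None (0) of its Entrez numbers, those of the 40 ABC genes included, is in the mouse RefSeq table, and its symbols are human. Of 11 hepatocyte markers, the table has 7, of which 0 passed the filter, and their summed level was 0.131 to 0.590 CPM (reads per 1000000 of the scaled library total) in shRNF11 and 0.391 to 0.568 CPM in shControl. HNF4A, APOA1 and APOB had 0 reads in every shRNF11 library, and 4, 1 and 6 reads over the shControl libraries. Of 6 epithelial markers, EPCAM and KRT19 had no row, and CDH1 had 29 reads in all and was not tested. The summed level of the 4 listed was 3773 to 3900 CPM in shRNF11 and 3105 to 3234 CPM in shControl. It was carried by KRT7, KRT8 and KRT18 and moved with the arm. Its part in the results was not tested. The 6 fibroblast markers summed to 65.0 to 93.2 CPM in shRNF11 and 67.9 to 91.4 CPM in shControl, but did not move alike. LUM had 119, 129 and 139 reads in shRNF11, against 46, 64 and 57 in shControl. COL1A2 had 16, 207 and 279 reads in shRNF11, against 156, 16 and 19 in shControl, with wide spread inside each arm. DCN had 1131, 1211 and 1167 reads in shRNF11, against 1159, 1116 and 1070 in shControl. The 4 endothelial markers summed to 2.22 to 3.44 CPM in shRNF11, a range that held all shControl libraries. The 3 listed of 4 leukocyte markers gave 41.5 to 46.5 CPM in shRNF11 and 47.7 to 52.8 CPM in shControl. Nearly all of that was CD68, with a mean of 43.5 CPM in shRNF11 and 49.2 CPM in shControl. CD14 had 70 reads in all, ITGAM had 8, and PTPRC had no row. In bulk RNA, fewer cells of a type and less RNA per cell cannot be told apart.

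ABC proteins bind and hydrolyse ATP in a pair of nucleotide-binding domains, and most use that energy to move a substrate across a membrane. In hepatocytes ABCC2, ABCB1 and ABCG2 sit in the canalicular membrane and send conjugates and drugs into bile, while ABCC3 and ABCC4 sit in the basolateral membrane and send them back to blood. Most subfamily A members and several of subfamily G handle lipids, subfamily D serves peroxisomes and lysosomes, and a set of subfamily B members lies in mitochondria. ABCE1 and the ABCF proteins have no membrane part and act at ribosomes.

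Members moved in both directions and by little. Of the 26 tested, 10 changed at an adjusted p under 0.05 (edgeR quasi-likelihood test, Benjamini-Hochberg over all tested genes), with 6 higher and 4 lower in shRNF11 cells. That is 38.5% of the tested members, against 32.1% of all 13489 tested genes and 34.4% of the protein-coding ones. Of all tested genes, 17.4% were higher and 14.7% lower. The share of changed members was thus near the background. Libraries of the arms did not overlap for 15 of the 26 members, against 42.8% of all tested genes. Log2 fold changes of the members ran from -0.43 to 0.54 with a median of 0.030, and the median over all tested genes was -0.0079. None (0) of the 26 passed edgeR's test against a 1.5-fold change, and 0 had an unadjusted p under 0.05 in it. Few genes of the whole table passed that test either, 84 of 13489.

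The summed level of the family gave a direction that depended on the scaling. With TMM scaling the 40 members held 1641, 1648 and 1641 CPM in the shRNF11 libraries, against 1587, 1587 and 1577 CPM in shControl. Scaled by library totals alone they held 1605, 1606 and 1610 reads per 1000000 in shRNF11, against 1618, 1623 and 1615 in shControl. The shRNF11 libraries were all above shControl in the first case and all below in the second. With totals alone 3 members were higher and 6 lower, and 29.1% of all changed genes were higher, against 54.2% with TMM.

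**Figure D1:**
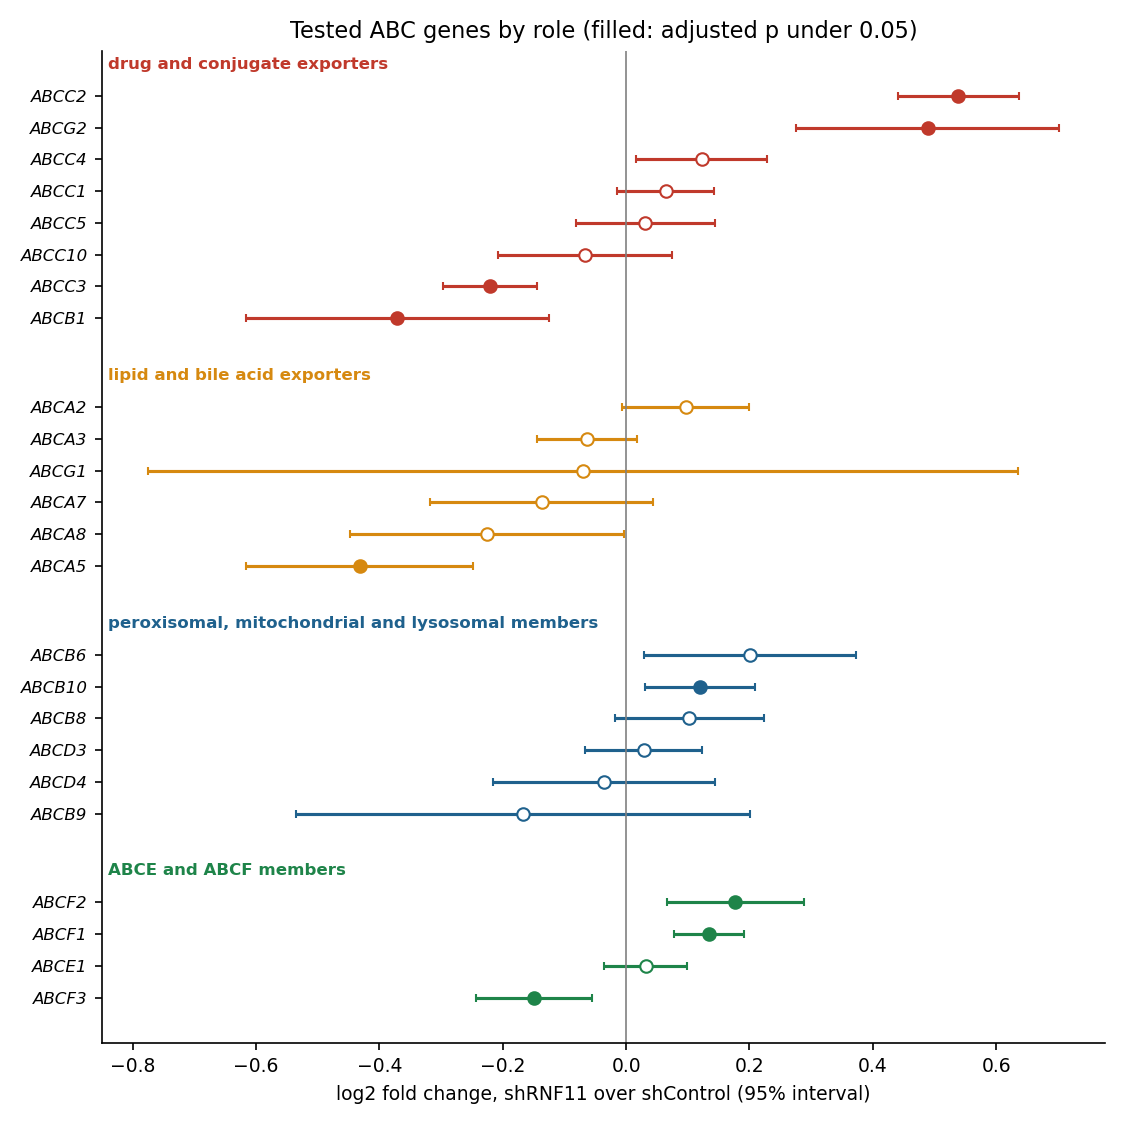
Log2 fold change of 24 tested ABC genes (horizontal axis, shRNF11 over shControl) with its 95% interval, grouped by role; filled points passed an adjusted p of 0.05. The 9 filled points run from -0.43 for ABCA5 to 0.54 for ABCC2, and the exporters of drugs and the ribosome-bound members have them on both sides of 0.

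Among drug and conjugate exporters, ABCC2 and ABCG2 rose while ABCC3 and ABCB1 fell. Members that are canalicular in hepatocytes moved both ways. With 0 hepatocyte markers past the filter, it is not known if that placement holds in these cells. Of 10 drug and conjugate exporters 8 were tested, with 2 higher, 2 lower and 4 that did not pass. That is 50% changed, against 32.1% of all tested genes, and no role group was tested against that background. ABCC2 (Entrez 1244), also called MRP2, exports bilirubin glucuronides and glutathione conjugates. It had 2607, 2680 and 2607 reads in the shRNF11 libraries, against 1891, 1725 and 1942 in shControl. All 3 shRNF11 libraries lay above all 3 shControl libraries, with little spread within each arm. Its level was 69.7 ± 0.864 CPM in shRNF11 and 48.0 ± 2.69 CPM in shControl (SD, n = 3 each), a 1.45-fold higher level (95% interval 1.36 to 1.56, edgeR adjusted p = 6.12e-13). Its log2 fold change was 0.54 with an SE of 0.0488. Of all tested genes 3.30% had a higher log2 fold change than ABCC2. Leaving out each library in turn gave 0.49 to 0.57 for ABCC2 on the log2 scale, with an adjusted p of at most 6.71e-09.

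ABCG2 (Entrez 9429), the breast cancer resistance protein, exports urate, porphyrins and many drugs. It had 459, 615 and 589 reads in shRNF11, against 455, 373 and 383 in shControl. In CPM the arms did not overlap, but shRNF11 replicate 1 (12.3 CPM) lay close to shControl replicate 1 (11.8 CPM). The mean level was 14.7 ± 2.07 CPM in shRNF11 and 10.5 ± 1.12 CPM in shControl (SD, n = 3 each), 1.40-fold higher (95% interval 1.21 to 1.63, edgeR adjusted p = 2.62e-04). The log2 fold change of ABCG2 was 0.49 with all libraries, 0.60 without shRNF11 replicate 1 and 0.42 without shRNF11 replicate 2, the extremes when each library was left out.

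ABCC3 (Entrez 8714), which exports glucuronides and bile acids at the basolateral side, went the other way. Its reads numbered 3937, 3851 and 3737 in shRNF11, against 4518, 4591 and 4627 in shControl. The arms were well apart, at 102 ± 3.56 CPM in shRNF11 and 119 ± 1.70 CPM in shControl (SD, n = 3 each). ABCC3 was 1.17-fold lower (95% interval 1.11 to 1.23, SE 0.0380 on a log2 fold change of -0.22, edgeR adjusted p = 6.85e-06). ABCB1 (Entrez 5243) encodes P-glycoprotein, which pumps out many unrelated hydrophobic drugs. It had 278, 258 and 247 reads in shRNF11, against 358, 325 and 353 in shControl, or 6.92 ± 0.486 CPM in shRNF11 and 8.95 ± 0.413 CPM in shControl (SD, n = 3 each). ABCB1 was 1.29-fold lower without overlap (95% interval 1.09 to 1.53, edgeR adjusted p = 0.0155). That call was lost without shRNF11 replicate 3 (adjusted p = 0.0609), shControl replicate 1 (0.0605) or shControl replicate 3 (0.0508).

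**Figure D2:**
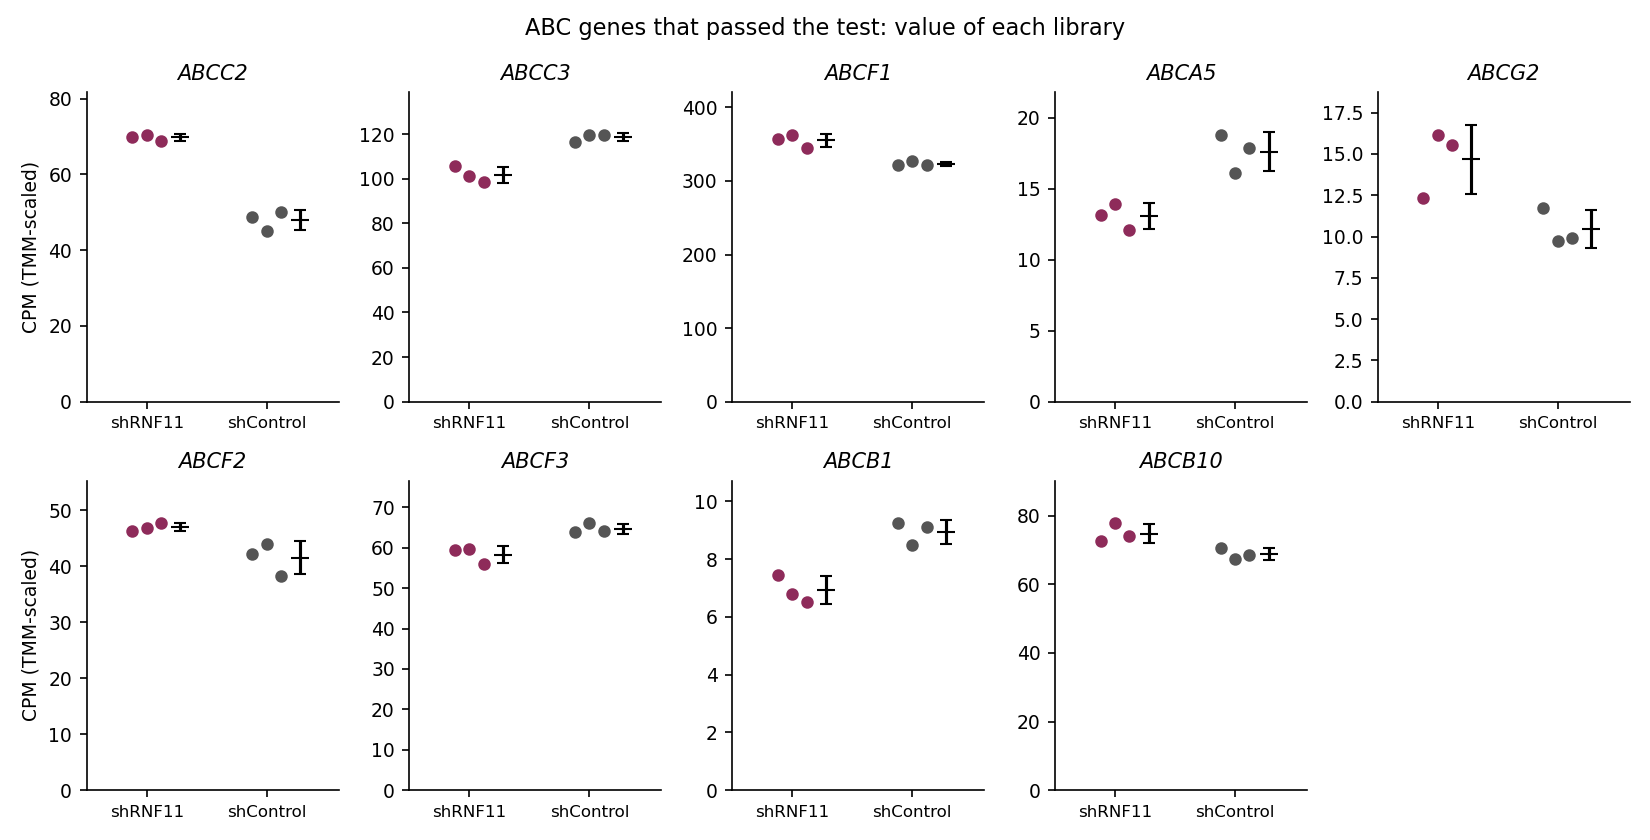
TMM-scaled CPM in each library of 9 ABC genes that passed the test (vertical axes start at 0), with shRNF11 on the left and shControl on the right; points are libraries and bars are mean ± SD of 3. ABCC2 sits at 68.8 to 70.5 CPM in shRNF11 and 45.0 to 50.2 CPM in shControl, while ABCG2 comes close to touching, at 12.3 CPM or more in shRNF11 and 11.8 CPM or less in shControl.

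Read ratios inside a library need no scaling between libraries, but show unequal change of a pair and not the direction of either gene. Pairs were chosen after their values were seen to move apart, so no test is given, and a ratio of reads does not compare levels because lengths are not corrected. The ratio of ABCC2 to ABCC3 reads was 0.662, 0.696 and 0.698 in shRNF11, against 0.419, 0.376 and 0.420 in shControl, a change of 1.70-fold. The ratio of ABCG2 to ABCB1 reads was 1.65, 2.38 and 2.38 in shRNF11, against 1.27, 1.15 and 1.08 in shControl, a change of 1.81-fold. Each ratio was higher in every shRNF11 library than in any shControl library. That must be so for pairs whose genes moved apart without overlap.

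The remaining tested exporters differed by less. ABCC1, or MRP1, a widely expressed exporter of glutathione conjugates and leukotrienes, had 4627, 4301 and 4465 reads in shRNF11, against 4569, 4197 and 4339 in shControl. The arms overlapped in CPM, and the 95% interval ran from 0.990-fold to 1.10-fold (edgeR adjusted p = 0.218). ABCC4, an exporter of cyclic nucleotides and prostaglandins, was at 48.0 ± 2.23 CPM in shRNF11 and 44.1 ± 0.976 CPM in shControl (SD, n = 3 each). Its arms did not overlap, but its adjusted p was 0.0704, and it was 0.0326 without shRNF11 replicate 1. ABCC5, which exports cyclic nucleotides, had an interval of 0.945-fold to 1.10-fold and ABCC10, a lipophilic drug exporter, of 0.866-fold to 1.05-fold. Changes of a size within these bounds could be present. ABCC11 had 3, 7 and 10 reads in shRNF11, against 12, 22 and 8 in shControl, and ABCB5 had 2 reads in all.

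**Figure D3:**
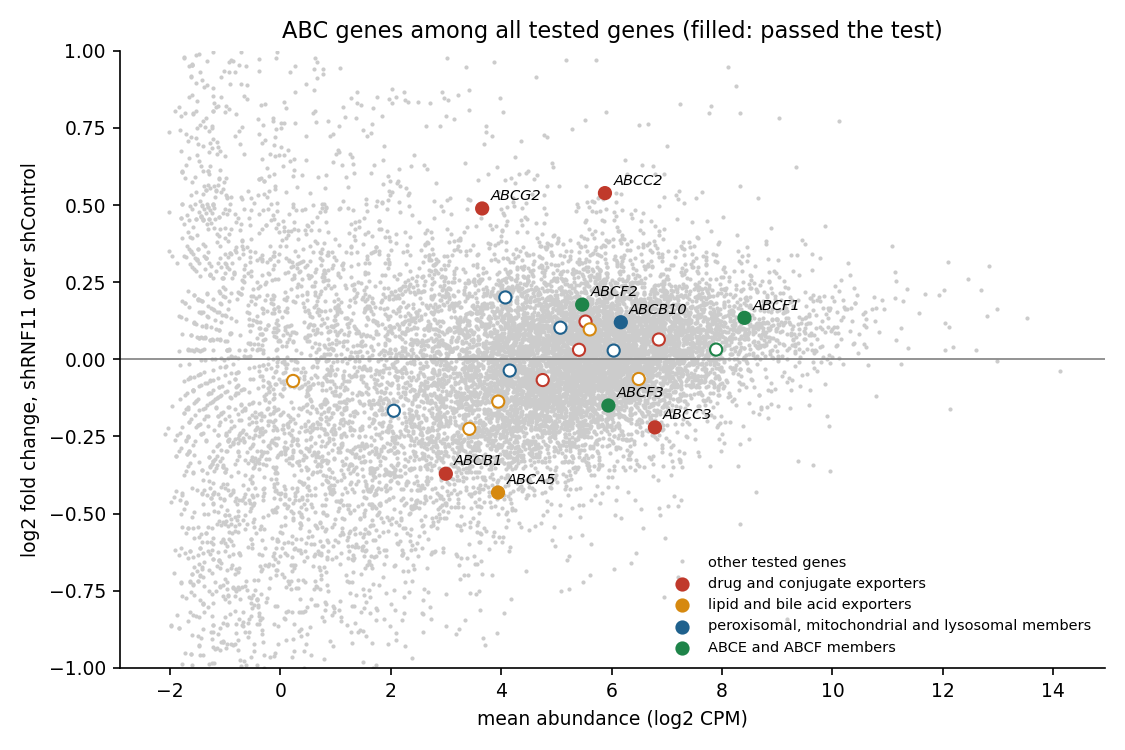
Log2 fold change (vertical axis, shRNF11 over shControl) against mean abundance in log2 CPM (horizontal axis) for all tested genes in grey and 24 ABC genes by role; filled points passed the test, and 344 other genes beyond 1 on the log2 scale are not drawn. ABCC2 and ABCG2 are the highest members, with 3.30% and 3.95% of all tested genes above them.

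Calls and direction both varied with abundance. When the tested genes were split by mean level into 5 bins of equal size, low to high, 9.19%, 24.8%, 32.3%, 38.8% and 55.7% of genes changed. Genes that were higher made up 3.30%, 6.30%, 13.4%, 21.2% and 42.8% of the bins, and those that were lower 5.89%, 18.5%, 18.8%, 17.6% and 12.9%. The bins held 1, 6, 5, 9 and 5 of the tested members. Bin 4, which holds ABCC2, had 4 members higher and 1 lower, while bin 2, which holds ABCG2, ABCB1 and ABCA5, had 1 higher and 2 lower. In bin 5 the members ABCF1 and ABCC3 changed, each its own way. The median log2 fold change of all genes was -0.156 in bin 1 and 0.065 in bin 5.

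Lipid and bile acid exporters were mostly too low to test, and ABCA5 was the sole member that passed. Of 15 members 6 were tested, with 0 higher, 1 lower and 5 that did not pass. That is 16.7% changed, against 32.1% of all tested genes. DESeq2 also called 0 higher and 1 lower, and at an unadjusted p under 0.05 there were 0 higher and 2 lower. Over all 13489 tested genes DESeq2 called 2265 higher and 1840 lower, and unadjusted there were 2882 higher and 2671 lower. ABCA5 (Entrez 23461), a transporter of late endosomes and lysosomes linked to cholesterol handling, had 490, 529 and 458 reads in shRNF11, against 728, 617 and 693 in shControl. All shRNF11 libraries lay below all shControl libraries, at 13.0 ± 0.917 CPM in shRNF11 and 17.6 ± 1.38 CPM in shControl (SD, n = 3 each). It was 1.35-fold lower (95% interval 1.19 to 1.53, SE 0.0914 on a log2 fold change of -0.43, edgeR adjusted p = 1.86e-04). The call held without each library in turn, with an adjusted p of at most 0.00595.

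The highest-count member of this group was ABCA3, which loads surfactant phospholipid into lamellar bodies of alveolar cells. Its 3298, 3427 and 3233 reads in shRNF11 stood against 3587, 3457 and 3600 in shControl, or 88.0 ± 2.45 CPM in shRNF11 and 91.9 ± 1.54 CPM in shControl (SD, n = 3 each). The adjusted p was 0.237, and it was 0.0110 with library totals alone. ABCA2, an endosomal lipid transporter abundant in oligodendrocytes, was at 50.2 ± 1.30 CPM in shRNF11 and 47.0 ± 1.29 CPM in shControl (adjusted p = 0.147). ABCA7, which moves phospholipid and is a risk gene for Alzheimer disease, was at 14.6 ± 0.701 CPM in shRNF11 and 16.1 ± 1.07 CPM in shControl (adjusted p = 0.255). ABCA8 was at 9.84 ± 0.487 CPM in shRNF11 and 11.5 ± 1.58 CPM in shControl, with an adjusted p of 0.116 that became 0.0300 without shControl replicate 3 and 0.0374 with library totals alone.

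Exporters that load cholesterol and bile were close to the limit of detection. ABCA1, which hands cholesterol to apolipoprotein A-I, had 3, 12 and 6 reads in shRNF11, against 6, 9 and 2 in shControl. ABCG1, which hands cholesterol to high-density lipoprotein, had 37, 53 and 34 reads in shRNF11, against 46, 53 and 34 in shControl, and its interval of 0.584-fold to 1.55-fold allows sizeable change either way. ABCB4, the canalicular phospholipid floppase, had 3 reads in all, ABCG4 5, ABCA4 31, ABCA10 28, ABCA13 10, ABCA9 4, ABCA12 4 and ABCA6 1. The 0 reads of ABCA6 in shControl allow up to 3 reads over the arm, a limit that covers counting error only. Of the other ABCC members, ABCC6, which has near-identical pseudogene copies in the human genome, had 9 reads in all and ABCC9, a regulator of potassium channels, 12. No fold change is given for these genes. ABCB11, ABCG5, ABCG8, ABCC8 and ABCC12 had no row and were not analysed here.

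Among members of peroxisomes, mitochondria and lysosomes, ABCB10 was slightly higher. Of 9 members 8 were tested, with 2 higher, 0 lower and 6 that did not pass. That is 25% changed, against 32.1% of all tested genes (17.4% higher and 14.7% lower). DESeq2 called 1 higher and 0 lower, and at an unadjusted p under 0.05 there were 3 higher and 0 lower. For all 13489 tested genes the counts were 2265 and 1840 in DESeq2, and 2882 and 2671 unadjusted. ABCB10 (Entrez 23456), an inner mitochondrial membrane protein needed for heme synthesis, had 2705, 2960 and 2805 reads in shRNF11, against 2734, 2579 and 2656 in shControl. In CPM its arms did not overlap, at 74.8 ± 2.71 CPM in shRNF11 and 68.8 ± 1.68 CPM in shControl (SD, n = 3 each), 1.09-fold higher (edgeR adjusted p = 0.0328).

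The call on ABCB10 was lost without shRNF11 replicate 2 (adjusted p = 0.162), shControl replicate 2 (0.125) or shControl replicate 3 (0.0851), with upper-quartile factors (0.0799) and with library totals alone (0.353).

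Of the other mitochondrial members, ABCB6, a porphyrin transporter also found in other membranes, was at 18.0 ± 0.942 CPM in shRNF11 and 15.7 ± 0.843 CPM in shControl without overlap (adjusted p = 0.0665). ABCB8 was at 34.8 ± 0.911 CPM in shRNF11 and 32.4 ± 1.32 CPM in shControl (adjusted p = 0.198). Peroxisomal ABCD3, which imports branched-chain acyl-CoA and bile acid precursors, had 2302, 2562 and 2646 reads in shRNF11, against 2452, 2534 and 2542 in shControl, and overlapped fully. ABCD2, which imports very-long-chain acyl-CoA, had 6 reads in all. Lysosomal ABCD4, which releases cobalamin to the cytosol, was at 17.5 ± 1.81 CPM in shRNF11 and 18.0 ± 2.13 CPM in shControl. Lysosomal ABCB9, a peptide transporter, had 129, 130 and 179 reads in shRNF11, against 190, 123 and 190 in shControl, and its interval ran from 0.690-fold to 1.15-fold.

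The ribosome-bound members moved in opposite directions. Of the 4 in this group, all tested, ABCF1 and ABCF2 were higher, ABCF3 was lower and ABCE1 did not pass. That is 75% changed, against 38.8% of all genes in abundance bin 4 and 55.7% in bin 5, the bins that hold these 4 members. ABCF1 (Entrez 23), which binds the initiation factor eIF2, had 13303, 13803 and 13093 reads in shRNF11, against 12452, 12532 and 12467 in shControl. The arms did not overlap, at 355 ± 8.89 CPM in shRNF11 and 323 ± 2.91 CPM in shControl (SD, n = 3 each), and ABCF1 was 1.10-fold higher (95% interval 1.06 to 1.14, edgeR adjusted p = 1.48e-04). The log2 fold change of 0.134 shrank to 0.070 with library totals alone (adjusted p = 0.0454). ABCF2 had 1722, 1784 and 1807 reads in shRNF11, against 1633, 1688 and 1483 in shControl, 1.13-fold higher (95% interval 1.05 to 1.22, edgeR adjusted p = 0.0103). Its call was lost without shControl replicate 3 (adjusted p = 0.131) and with library totals alone (0.110).

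ABCF3 (Entrez 55324), whose yeast counterpart Gcn20 works with Gcn1 in the response to amino acid shortage, had 2211, 2266 and 2118 reads in shRNF11, against 2469, 2533 and 2480 in shControl. All shRNF11 libraries were below all shControl libraries, and ABCF3 was 1.11-fold lower (95% interval 1.04 to 1.18, edgeR adjusted p = 0.0110). That call was lost without shRNF11 replicate 3 (adjusted p = 0.0799) or shControl replicate 2 (0.0583). The ratio of ABCF1 to ABCF3 reads was 6.02, 6.09 and 6.18 in shRNF11, against 5.04, 4.95 and 5.03 in shControl, again chosen after the values were seen. ABCE1, which splits ribosomes after termination, was at 240 ± 13.5 CPM in shRNF11 and 235 ± 8.27 CPM in shControl (SD, n = 3 each). Its interval of 0.976-fold to 1.07-fold was the narrowest among members that did not pass.

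By subfamily the changes were scattered. In A, ABCA5 was the 1 changed member of 5 tested. In B and in C, 1 was higher and 1 lower of 6 tested each. In G, ABCG2 was higher of 2 tested. All 3 tested members of F changed, 2 higher and 1 lower, and ABCE1 did not pass. These counts stand against 32.1% changed among all tested genes. In abundance bin 5, which holds ABCF1, 55.7% of all genes changed, and in bin 4, which holds ABCF2 and ABCF3, 38.8% did. No subfamily was tested against that background.

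**Figure D4:**
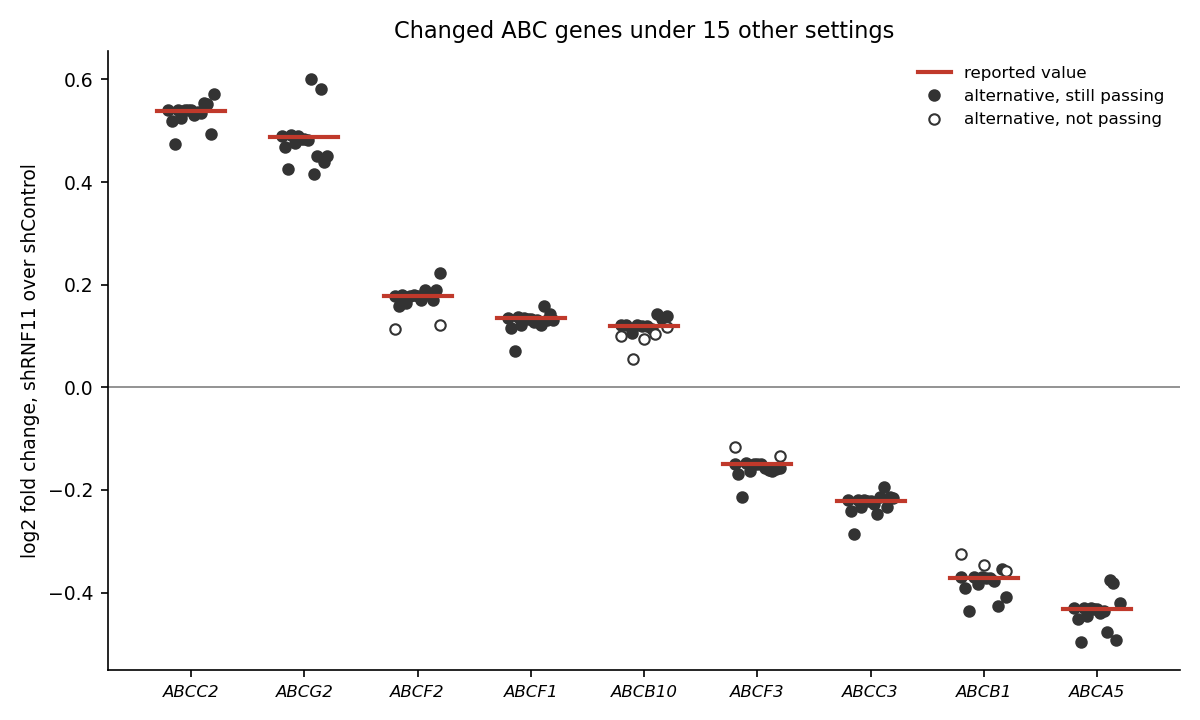
Log2 fold change (vertical axis, shRNF11 over shControl) of 9 changed ABC genes as reported (red bar) and under 15 other settings, each a point (filled where it still passed an adjusted p of 0.05). No point lies across 0, and all points of ABCC2, ABCG2, ABCC3, ABCF1 and ABCA5 are filled.

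The 2 ABC genes listed under other symbols were both higher. TAP1 and TAP2, which together carry peptides into the endoplasmic reticulum for MHC class I, were 1.21-fold and 1.26-fold higher. TAP1 was at 58.3 ± 1.66 CPM in shRNF11 and 48.2 ± 2.15 CPM in shControl, and TAP2 at 80.6 ± 2.09 CPM in shRNF11 and 64.0 ± 2.06 CPM in shControl (SD, n = 3 each, edgeR adjusted p of at most 1.76e-05). CFTR, the chloride channel of the C subfamily, had no row and was not analysed here.

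Genes that regulate or serve the transporters were read from lists of names, whose counts stand against 32.1% changed, 17.4% higher and 14.7% lower among all tested genes. In DESeq2 2265 of the 13489 tested genes were higher and 1840 lower, and at an unadjusted p under 0.05 there were 2882 and 2671. No list was tested against these backgrounds. Among 13 tested nuclear receptors and xenobiotic sensors 2 rose, 6 fell and 5 did not pass (61.5% changed), with a median log2 fold change of -0.086, against -0.0079 for all genes. PPARG was 1.19-fold higher, while PPARD was 1.28-fold, PPARA 1.35-fold and the dioxin receptor gene AHR 1.20-fold lower (edgeR adjusted p of at most 0.00144). These receptors switch on lipid or drug handling genes, ABC genes among them. NR1I2 and NR1I3, the pregnane and constitutive androstane receptors that induce drug exporters in liver, had no row and were not analysed here. The liver X receptors induce ABCA1 and ABCG1, and of 7 tested targets of theirs outside the family 0 were higher, 3 lower and 4 did not pass (42.9% changed), with a median of -0.21. DESeq2 gave the same 0 and 3, and unadjusted there were 0 and 4. That median is the value of PLTP, which had 70 reads in all and did not pass. Of the 7 targets, 2 lie in abundance bin 1 and 2 in bin 2, where medians of all genes were -0.156 and -0.0923. The liver X receptor genes NR1H2 and NR1H3 did not pass (edgeR adjusted p = 0.514 and 0.983). The desaturase gene SCD was at 867 ± 25.5 CPM in shRNF11 and 1115 ± 22.2 CPM in shControl, 1.29-fold lower, and SREBF1, a regulator of fatty acid synthesis, was 1.14-fold lower.

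Among 14 tested genes that make conjugates for export 5 rose, 3 fell and 6 did not pass (57.1% changed), with a median of 0.030. The glutathione transferase gene GSTP1 was 1.23-fold higher, MGST3 1.25-fold, MGST1 1.09-fold and GCLM, a subunit of the enzyme that starts glutathione synthesis, 1.20-fold. The rise of MGST1 did not pass with library totals alone. The remaining riser, GSTM3, was 1.08-fold higher with an edgeR adjusted p of 0.0444. Its call was not followed through the alternatives. The 3 that fell, named after their values were seen, were GCLC, the catalytic subunit of the same enzyme (1.08-fold lower), GSTK1 (1.14-fold lower) and the sulfotransferase gene SULT1A1 (1.20-fold lower). Their calls were not firm: GCLC was lost in DESeq2 (adjusted p = 0.0527), with no filter (0.0721), with DESeq2-style size factors (0.0503) and without shRNF11 replicate 2 or 3 or shControl replicate 1 or 2 (0.127 to 0.175). GSTK1 was lost without shRNF11 replicate 3 (adjusted p = 0.0636), and SULT1A1 with no filter (0.0612) and without shRNF11 replicate 2 or 3 or any shControl library (0.0551 to 0.131). Among 12 tested uptake and organic ion transporters of the SLC class 1 rose, 1 fell and 10 did not pass (16.7% changed, median -0.089). The carnitine transporter gene SLC22A5 was 1.46-fold higher, at 65.6 ± 2.94 CPM in shRNF11 and 45.0 ± 0.868 CPM in shControl (SD, n = 3 each, edgeR adjusted p = 7.27e-13). SLCO4A1, an organic anion transporter, was 1.09-fold lower, a call lost in DESeq2 (adjusted p = 0.0569) and without shRNF11 replicate 2 or 3 or any shControl library (0.0794 to 0.197).

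Partners inside organelles and at ribosomes showed mixed counts. Among 16 tested genes of peroxisomal oxidation and import 1 rose, 1 fell and 14 did not pass (12.5% changed, median -0.0052). ACSL1, an acyl-CoA synthetase, was 1.19-fold higher and ACBD5, a peroxisomal tether, 1.10-fold lower. Without shRNF11 replicate 1 or 2 or shControl replicate 1 or 2 the call on ACSL1 was lost (adjusted p of 0.0816 to 0.0888), as with library totals alone (0.0998). The call on ACBD5 was lost without shRNF11 replicate 2 or any shControl library (0.0599 to 0.209) and with no filter (0.0519). Among 19 tested genes of iron-sulfur cluster and heme synthesis 5 rose, 4 fell and 10 did not pass (47.4% changed, median 0.033). ALAS1, the first enzyme of heme synthesis, was 1.15-fold higher and PPOX, a late one, 1.51-fold lower. HSPA9, a mitochondrial chaperone, was 1.06-fold and UROS, whose arms overlapped, 1.15-fold higher, but the first call was lost without shRNF11 replicate 2 (adjusted p = 0.0833) or shControl replicate 3 (0.0593), and the second without shRNF11 replicate 1 (0.0596) or 2 (0.211) or shControl replicate 3 (0.0518). Both were lost with library totals alone (0.690 for HSPA9 and 0.0915 for UROS), and HSPA9 with upper-quartile factors (0.0653).

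Of 3 genes of lysosomal cobalamin release, MMADHC was 1.14-fold higher and MMACHC 1.17-fold lower, the MMACHC call being lost without shRNF11 replicate 1 or 2 or shControl replicate 1 or 3 (adjusted p of 0.0959 to 0.151) and with no filter (0.0553). Among 14 tested partners of ABCE1 and the ABCF proteins in translation 5 rose, 0 fell and 9 did not pass (35.7% changed, median 0.069), while DESeq2 called 7 and 0 and unadjusted there were 7 and 1. For all 13489 tested genes the counts were 2265 and 1840 in DESeq2, and 2882 and 2671 unadjusted. Of these 14 partners 11 lie in bin 5 of abundance, where 42.8% of all genes were higher. The count of 5 in edgeR is no higher than that background. The initiation factor genes EIF5, EIF2S3, EIF3J and EIF2S2 were 1.08-fold, 1.06-fold, 1.07-fold and 1.07-fold higher. All 4 of these calls were lost with library totals alone, that on EIF3J also without shRNF11 replicate 3 or shControl replicate 1 or 3 (adjusted p of 0.0925 to 0.164), and that on EIF2S2 without shRNF11 replicate 3 or shControl replicate 2 or 3 (0.0510 to 0.165). With upper-quartile factors EIF3J (0.0828) and EIF2S2 (0.0926) were lost too.

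**Figure D5:**
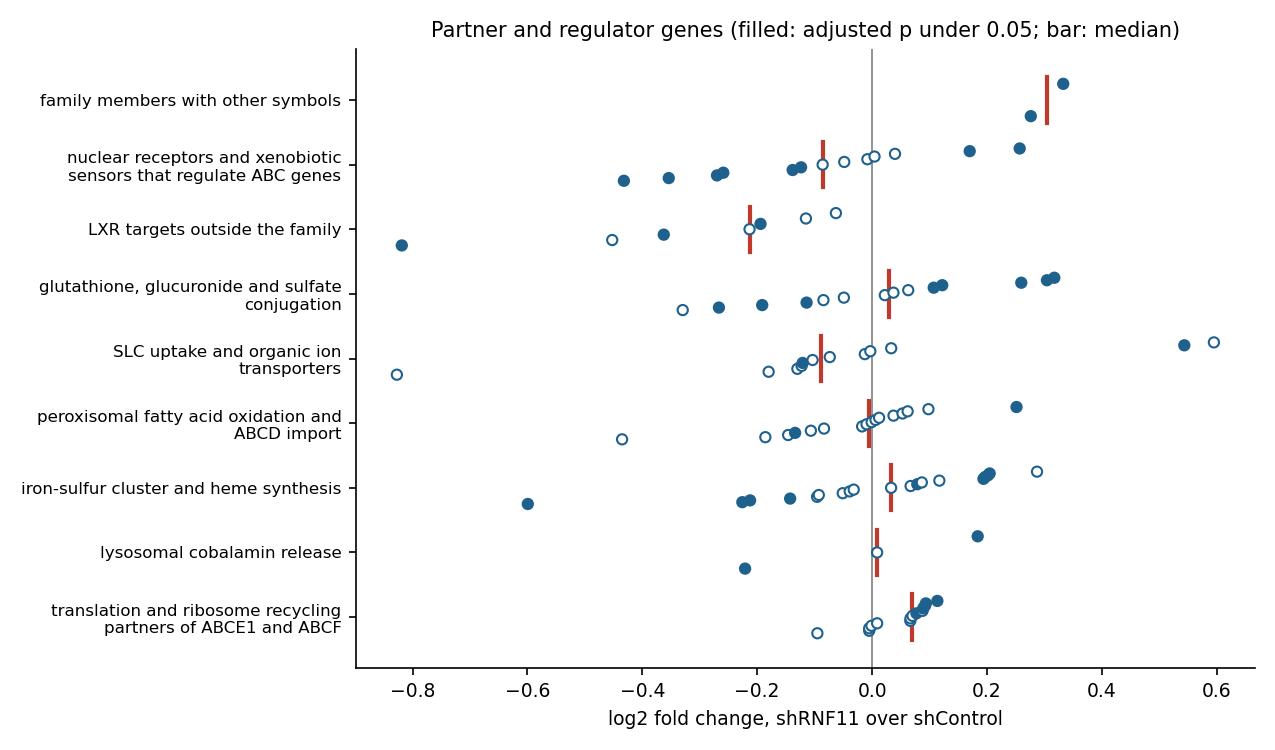
Log2 fold change (horizontal axis, shRNF11 over shControl) of each tested gene of the partner and regulator lists, which run down the page; filled points passed an adjusted p of 0.05 and red bars are list medians. The medians run from -0.21 for targets of the liver X receptors to 0.30 for TAP1 and TAP2.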

How the data were processed

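The authors deposited 1 table of raw counts for the 6 libraries: whole reads by gene, without scaling. TRIzol extraction and a VAHTS Universal V10 kit are named per the labels' protocols, and fastp, HISAT2 and HTSeq per the submitters' processing notes. For their versions, the genome build, the annotation and strand: not given in the sources used here. The table names human genes and gives no lengths, so levels of different genes are not ranked and no coordinates or sequences are printed.

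Genes passed filterByExpr (minimum count 10), were scaled with TMM and were tested between the groups, with no covariate, by quasi-likelihood in edgeR 4.0.16 (R 4.3.3), over 13489 genes. P-values are 2-sided and adjusted by Benjamini-Hochberg over all of them. CPM is reads per 1000000 of the TMM-scaled total. The standard error (SE) is the size of the log2 fold change over the root of the F statistic, and 95% intervals use a t quantile. The median SE of tested members was 0.0555 (0.0280 to 0.351). The procedure was run on simulated counts with the same dispersion for every gene, a check of the code and not of these results. Alternatives were DESeq2 1.42.0, limma-voom (limma 3.58.1), other scalings and filters, a test against a 1.5-fold change, a replicate block and leaving out each library.

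Members, roles and lists were chosen with earlier results of these data known, and support nothing by themselves. Named are RNF11, the members, TAP1, TAP2 and, of each partner list, up to 4 changed genes with the smallest p. The other changed conjugation genes are named too. Values of 2 members and 1 list gene are not reported here, though counts and medians include them. Groups came from the sample titles. Same-numbered libraries did not deviate together (r of -0.0159, -0.00586 and -0.00714), so the main fit has no pairing. Whether they were handled in pairs is not told by the labels.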

Additional observations from a re-analysis of the deposited data

How the results depend on the processing

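Of the 10 changed members, ABCC2, ABCG2, ABCC3, ABCA5 and ABCF1 kept direction and call under every alternative tried except the test against a 1.5-fold change. Under that test, which asks more by construction, the counts were 0 for all changed members, for those higher, for those lower, for each of the 4 tested role groups and for each of the 9 partner lists. RNF11 passed it. The count of changed members was 7 to 10 when each library was left out, with 4 to 6 higher and 2 to 4 lower. Calls fell over the whole table too, from 4336 of 13489 tested genes to between 3478 and 3978 of 13732 to 13800. By role, leaving out libraries gave 3 to 5 exporters, 1 to 2 lipid exporters, 0 to 1 organelle members and 2 to 3 ribosome-bound members.

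With library totals alone 3 members were higher and 3 lipid exporters changed. Organelle members numbered 0 with upper-quartile factors and with totals alone, and 1 when a mean level of 5 CPM was required, in DESeq2 and with protein-coding genes alone. The uptake transporters gave 4 with upper-quartile factors, totals alone and the 5 CPM minimum, and 1 in DESeq2. Peroxisomal oxidation gave 4 with totals alone and 1 with no filter, cobalamin release 1 with no filter, and translation partners 3 with upper-quartile factors and 2 with totals alone. Without a library the ranges were 5 to 7 for nuclear receptors, 5 to 8 for conjugation, 1 to 2 for uptake transporters, 0 to 2 for peroxisomal oxidation, 4 to 9 for iron-sulfur and heme genes, 1 to 2 for cobalamin release and 2 to 7 for translation partners.

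Signs of these members, which did not pass, turned. With totals alone the log2 fold change was -8.33e-05 for ABCC1, -0.0336 for ABCC5, -0.0360 for ABCD3 and -0.0327 for ABCE1. Leaving out libraries gave -0.0203 to 0.0662 for ABCC5, -0.00539 to 0.0779 for ABCD3, -0.127 to 0.0385 for ABCD4, -0.0107 to 0.0625 for ABCE1 and -0.279 to 0.0835 for ABCG1. The causes were not tested.

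With the replicate number as a block 10 members changed, 6 higher and 4 lower, and all 10 were shared with the fit without it. Precision rose with depth: SE was 0.0280 for ABCF1, with 77650 reads in all, and 0.351 for ABCG1, with 257.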

Other observations

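On the second principal component shRNF11 replicate 1 stood apart. ABCG2 was at 12.3 CPM there, against 16.2 and 15.5 CPM in replicates 2 and 3, and ABCC10 at 29.1 CPM, against 24.7 and 25.1 CPM. ABCC2, at 69.9, 70.5 and 68.8 CPM in replicates 1, 2 and 3, did not set it apart. These genes were chosen after their values were seen, and the cause was not tested. Leaving out this library gave 10 changed members, of which 9 were shared with the full set, and ABCC4 was gained.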
